A study of Rattus norvegicus with 6 samples.

Results

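The genes described here are 3 enzymes of oligodendrocytes, Enpp2, Ugt8 and Car2, and 3 regulators of the oligodendrocyte lineage, Sox10, Olig1 and Pdgfra. Total RNA came from the rat spinal cord near thoracic segment 8, from the epicenter of a contusion injury (a blunt blow to the cord) 35 days after injury on 3 arrays, and from the same position in uninjured animals on 3 arrays. The labels name no sham operation, strain, age or sex. They do not state that each array stands for an animal of its own, so the p-values cover only array-to-array spread, which may be technical. Every probe set that the array's annotation assigns to exactly 1 of the 6 symbols was taken, which gave 11 of 8799 probe sets: 2 each for Enpp2, Ugt8 and Car2, 1 for Sox10 and 4 for Pdgfra. These cover 5 of the 4736 genes with a probe set of their own, and Olig1 is not analysed here.

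Oligodendrocytes wrap axons of the central nervous system in myelin, a membrane unusually rich in galactolipids. They arise from progenitor cells that divide in response to platelet-derived growth factor through its alpha receptor, the product of Pdgfra, and that lose this receptor as they mature. Sox10 and Olig1 encode transcription factors present through the lineage, and Sox10 protein activates myelin genes in maturing cells. Ugt8, Enpp2 and Car2 are enzyme genes typical of the mature cell, although none of the 6 genes is restricted to oligodendrocytes in the cord.

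At the contusion epicenter Enpp2 and Ugt8 were lower, 1.59-fold and 1.96-fold, and Car2 was lower by 1 of its 2 probe sets, while Sox10 and Pdgfra did not pass the test. Values are probe set signals, intensities on a linear scale. Signals under 61.6, the 25th percentile of all arrays pooled, were set to that floor before taking log2, and 7 of the 11 probe sets lay above the floor on at least 3 arrays and were tested. All 5 genes on the array had at least 1 such probe set. In limma, with Benjamini-Hochberg adjustment over all 6705 probe sets tested and a threshold of 0.05, 4 of the 7 were lower after contusion and 0 higher, or 5 lower and 0 higher at a raw p of 0.05. Of all probe sets tested, 17.4% passed at the adjusted threshold, 9.59% as lower and 7.79% as higher. The share at a raw p of 0.05 was not computed, so raw counts here and below cannot be weighed. The median log2 change of the 7 was -0.67, against -0.01 over all probe sets tested.

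Myelin genes check that the tissue holds oligodendrocytes: Mbp, Mag, Mobp and Cnp lay above the floor on all 6 arrays. The trimmed mean signal ran from 209 to 219 on the contused arrays and from 217 to 228 on the uninjured arrays, and 73.1% to 76% of probe sets were above the floor on each array. Microglia and neuron markers differed between the groups. Of 15 microglia and macrophage genes tested 14 rose, with a summed signal of 12065 to 12747 on contused arrays and 4174 to 5183 on uninjured arrays (9 of 12 rose without contused array 2, and 11 of 15 without the filter on dim probe sets). Of the 15, 3 (Itgam, Fcgr2b and Hmox1) were above the floor on contused arrays alone, so they entered the test through the group where they were high. All 11 neuronal genes tested fell, with sums of 7308 to 8164 on contused arrays and 15570 to 18189 on uninjured arrays. In RNA from whole tissue, fewer cells of a type and less RNA per cell cannot be told apart, and the part of these shifts in the changes below was not tested.

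Enpp2 encodes autotaxin, a secreted enzyme that cuts lysophosphatidylcholine into the signalling lipid lysophosphatidic acid and that oligodendrocytes and the choroid plexus make. The probe set D28560_at gave signals of 687, 771 and 726 on the contused arrays, against 1152, 1217 and 1104 on the uninjured arrays. The groups did not overlap, as was the case for 34.8% of all probe sets tested, and within each group the arrays stayed close together. Enpp2 fell 1.59-fold by this probe set (728 ± 41.8 after contusion, against 1158 ± 56.7 in uninjured cord, SD, n = 3 each), with a log2 change of -0.67 (SE 0.12, limma adjusted p = 0.00318). Of all probe sets tested, 5.94% had a lower log2 change.

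The second Enpp2 probe set, D28560_g_at, names the same reference transcript and also fell. Its signals were 249, 401 and 569 on the contused arrays, against 800.5, 846 and 728 on the uninjured arrays. The groups again did not overlap, but here the contused arrays differed among themselves, with array 1 lowest and array 3 highest. The log2 change was -1.04 (SE 0.25, limma adjusted p = 0.0154), or 2.05-fold lower. Without uninjured array 2 the call was lost (adjusted p = 0.0632). The within-array ratio of the 2 Enpp2 probe sets, D28560_at over D28560_g_at, had a log2 value of 0.92 ± 0.56 after contusion and 0.55 ± 0.04 in uninjured cord. The groups overlapped in this ratio (exact permutation p = 0.4, n = 3 each, where the test cannot go below 0.1).

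Ugt8 encodes the transferase that joins galactose to ceramide, the step that makes galactosylceramide, the main glycolipid of myelin. The probe set rc_AI228110_s_at gave 623, 593 and 939 on the contused arrays, against 1523, 1182 and 1441 on the uninjured arrays. Contused array 3 was the highest of its group and still lay below every uninjured array. Ugt8 fell 1.96-fold (719 ± 191 after contusion, against 1382 ± 178 in uninjured cord, SD, n = 3 each), with a log2 change of -0.97 (SE 0.18, limma adjusted p = 0.00486). Of all probe sets tested, 2.61% had a lower log2 change. The second Ugt8 probe set, U07683_at, gave 49, 33.2 and 23.5 after contusion and 28, 15.7 and 12.7 in uninjured cord. All 6 values were under the floor, which sets them equal, so it was not tested.

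Car2 encodes the cytosolic carbonic anhydrase, which interconverts carbon dioxide and bicarbonate and is abundant in oligodendrocytes and red blood cells. Its probe sets pointed the same way but differed in their calls. U60578cds_s_at gave 68.7, 68.7 and 80.3 on the contused arrays, close to the floor, against 99.9, 137 and 120 on the uninjured arrays. The groups did not overlap, and the probe set fell 1.63-fold, with a log2 change of -0.71 (SE 0.15, limma adjusted p = 0.00858). X58294_at, well above the floor on every array, gave 487, 374 and 339 on the contused arrays, against 470, 528 and 598 on the uninjured arrays.

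Contused array 1 lay above uninjured array 1 for X58294_at, so the groups overlapped, and the log2 change of -0.42 (SE 0.17, limma adjusted p = 0.115) did not pass. Its 95% interval ran from -0.79 to -0.05. Without contused array 1 the log2 change was -0.57 and passed (adjusted p = 0.0421). The within-array ratio of U60578cds_s_at to X58294_at overlapped between the groups (log2 difference -0.28, exact permutation p = 0.4, n = 3 each). Of the other 4 red cell genes tested, 3 had log2 changes below 0, and Slc4a1, the anion exchanger of the red cell membrane, had one of 0.33 (limma adjusted p = 0.167). The beta-globin gene Hbb gave 1718, 1762 and 2553 after contusion, against 2306, 3238 and 2491 in uninjured cord (log2 change -0.42, limma adjusted p = 0.134). By the brightest probe set (X58294_at for Car2), none of the 5 red cell genes tested, Car2 included, passed in limma (3 lower and 0 higher at a raw p of 0.05). The part of red cells in the Car2 values was not tested. Without contused array 3, Hbb and Hbb-b1 passed as lower (adjusted p = 0.0164 and 0.00192).

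The filter on dim probe sets mattered for 3 of the 4 calls. When all 8740 probe sets other than controls were tested, D28560_g_at of Enpp2 (limma adjusted p = 0.143), Ugt8 (0.0686) and Car2 U60578cds_s_at (0.0543) no longer passed. Enpp2 by D28560_at was the only call left. The log2 changes stayed the same, but the SEs moved. The SE went from 0.117 to 0.061 for D28560_at and from 0.149 to 0.141 for Car2 U60578cds_s_at. It rose from 0.247 to 0.319 for D28560_g_at and from 0.183 to 0.217 for Ugt8. The cause was not tested.

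**Figure D1:**
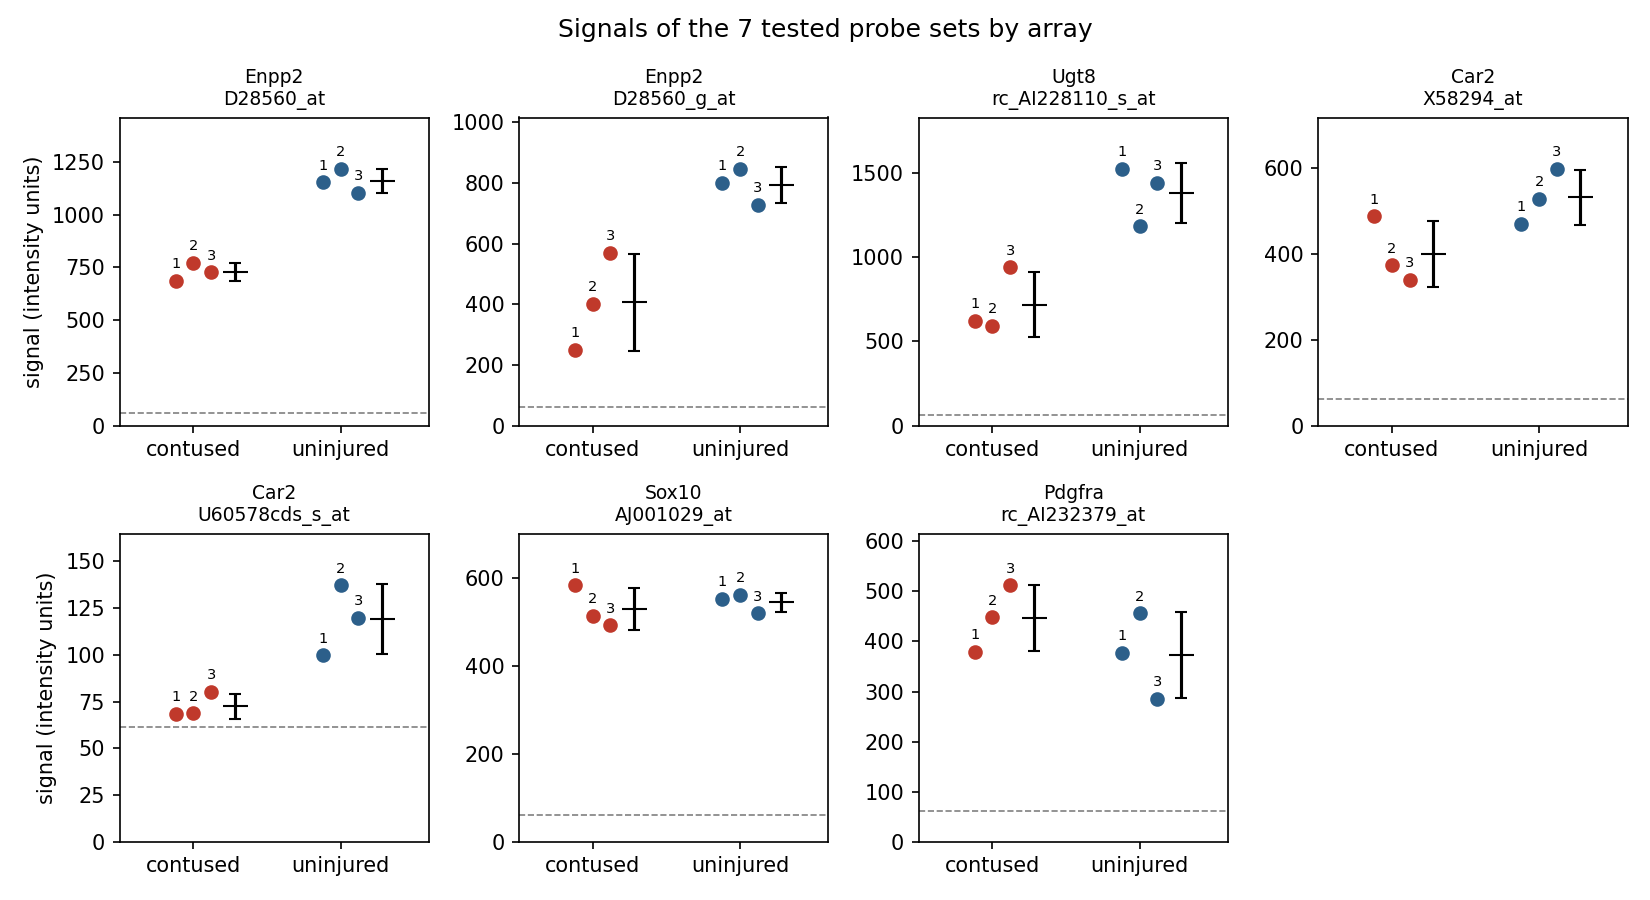
Signal (intensity units, linear axis from 0) of the 7 tested probe sets, with contused arrays left and uninjured arrays right in each panel, 1 numbered point per array. Bars give mean and SD over 3 arrays and the dashed line is the floor of 61.6. The groups are apart for both Enpp2 probe sets, Ugt8 and Car2 U60578cds_s_at, and overlap for Car2 X58294_at, Sox10 and Pdgfra.

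Sox10, whose protein is required for oligodendrocytes to mature and is also made by Schwann cells, gave 584, 514 and 493 on the contused arrays, against 553, 561 and 519 on the uninjured arrays. Contused array 1 was the highest of all 6, while contused arrays 2 and 3 lay below every uninjured array, so the groups overlapped through 1 array. The log2 change was -0.04 (SE 0.13, limma adjusted p = 0.866), with a 95% interval from -0.33 to 0.24. Its sign depended on scaling: the log2 change was 0.0665 with quantile normalization and 0.00608 with the arrays scaled to 1 trimmed mean. Of 10 Schwann cell genes tested, Sox10 included, 0 passed in limma (2 higher at a raw p of 0.05), with summed signals of 9199 to 10910 on contused arrays and 8877 to 9462 on uninjured arrays. The brightest of them besides S100b was Pmp22, a protein of peripheral myelin, at 2028 ± 229 after contusion and 1535 ± 121 in uninjured cord (adjusted p = 0.0507). Pmp22 passed as higher under 8 of 15 other processing choices.

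Pdgfra was measured above the floor by 1 of its 4 probe sets. The probe set rc_AI232379_at gave 379, 449 and 513 on the contused arrays, against 377, 457 and 286 on the uninjured arrays. The groups overlapped, with uninjured array 3 lowest and contused array 3 highest. The log2 change was 0.28 (SE 0.19, limma adjusted p = 0.368), with a 95% interval from -0.14 to 0.7. The other Pdgfra probe sets stayed under the floor on all 6 arrays: rc_AI137657_at between 15 and 26.3, Z14118cds_at between 15.3 and 30.8, and Z14118cds_g_at between 30.5 and 59.4. Z14118cds_g_at gave 48.8, 59.4 and 50.6 on the contused arrays, against 32, 33.7 and 30.5 on the uninjured arrays. The floor sets all values of these probe sets equal, so they were not tested.

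Fibroblasts and meningeal cells also make Pdgfra, and all 14 of their markers tested, Pdgfra included, had log2 changes above 0, with 5 passing as higher. Their summed signal was 15061 to 18219 on contused arrays and 7620 to 13514 on uninjured arrays. The lowest of these sums came from uninjured array 3, the array with the lowest Pdgfra. The highest sum came from contused array 2, whereas Pdgfra was highest on contused array 3. Without uninjured array 3 the log2 change of Pdgfra was 0.1, and 3 of the 14 genes passed as higher. The count was also 3 without contused array 2, and it was 1 without the filter on dim probe sets. The part of these cells in the Pdgfra signal was not tested.

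**Figure D2:**
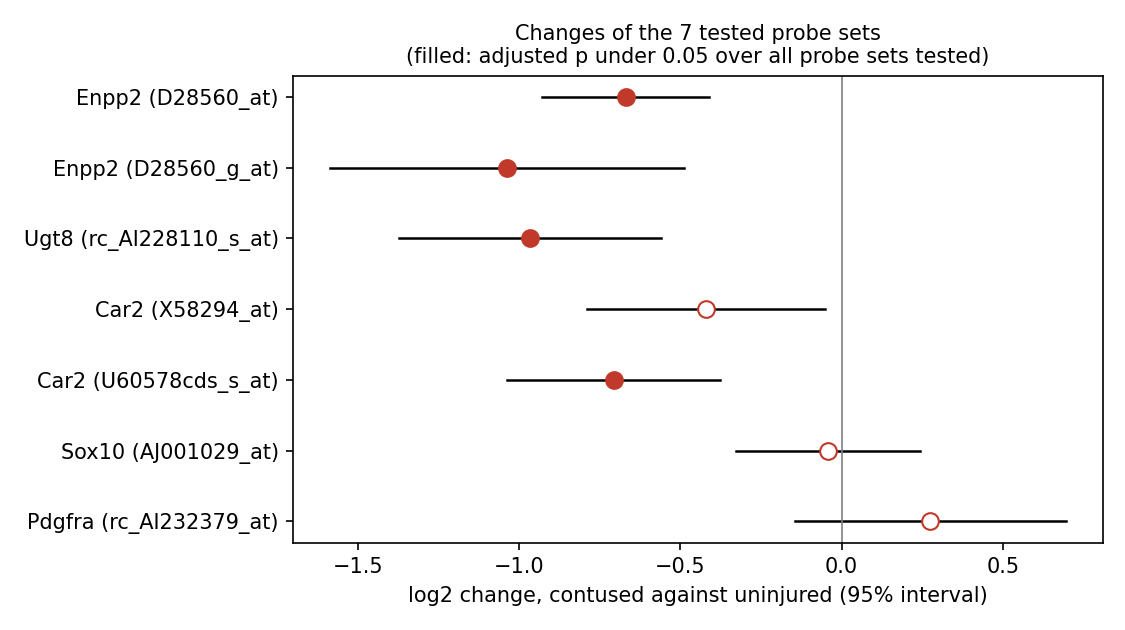
Log2 change (contused against uninjured, horizontal axis) with its 95% interval for the 7 tested probe sets, 3 arrays a group, filled where the limma adjusted p was under 0.05. Both Enpp2 probe sets, Ugt8 and 1 Car2 probe set are filled, all below 0, while the intervals of Sox10 and Pdgfra include 0.

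A call in the enzyme genes and none in Sox10 does not show that their changes differ, so the log2 ratio of each enzyme probe set to Sox10 was compared within arrays. The Enpp2 ratio by D28560_at was lower by 0.63 after contusion, with values of 0.24, 0.59 and 0.56 on contused arrays and 1.06, 1.12 and 1.09 on uninjured arrays. The Ugt8 ratio was 0.1, 0.21 and 0.93 on contused arrays and 1.46, 1.08 and 1.47 on uninjured arrays, a difference of -0.93. For Car2 the difference was -0.66 by U60578cds_s_at and -0.38 by X58294_at. In each of these comparisons, and for D28560_g_at, all 3 contused arrays lay below all 3 uninjured arrays, as did 13% of all other tested probe sets when divided by Sox10 (29.6% did not overlap in either direction). Of these 5 probe sets, 4 had groups that did not overlap before the division, as did 34.8% of all probe sets tested. The exact two-sided permutation test gave p = 0.1, the smallest that 3 against 3 arrays allow, and 0.143 after Benjamini-Hochberg adjustment over the 10 ratios computed. This smallest p lies above the threshold used here, so no ratio could have passed, whatever its values. The test therefore cannot decide whether the enzyme genes and Sox10 differed in their change.

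Against Pdgfra the contused arrays also lay below the uninjured arrays. Relative to Pdgfra, the log2 ratio differed between contused and uninjured arrays by -0.94 for Enpp2 (D28560_at) and by -1.24 for Ugt8, again with no overlap (exact p = 0.1 each, n = 3 each). Both probe sets had groups that did not overlap before the division, as did 34.8% of all probe sets tested. The share of all probe sets without overlap after division by Pdgfra was not computed, so this lack of overlap cannot be weighed. The ratio of Ugt8 to Enpp2 overlapped between the groups (difference -0.3, exact p = 0.2, n = 3 each).

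**Figure D3:**
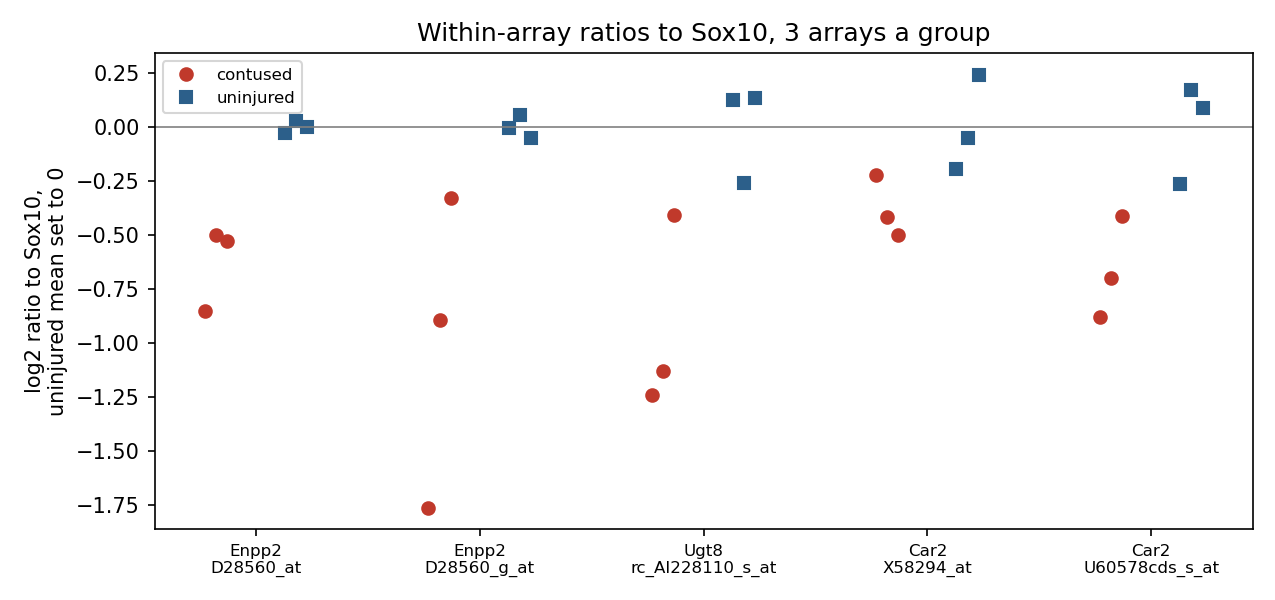
Log2 ratio of each enzyme probe set to Sox10 within an array, shifted so that the mean of the uninjured arrays is 0 (vertical axis, log2 units), with contused arrays left of uninjured arrays, 3 each. For all 5 probe sets the contused points lie below the uninjured points, with the widest spread among contused arrays for Enpp2 D28560_g_at.

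Around Enpp2, 9 genes of autotaxin and lysophosphatidic acid signalling were tested, Enpp2 among them: 3 were lower and 2 higher, with a median log2 change of -0.16. By gene, each taken at its brightest tested probe set, 9.91% of 3955 genes were lower and 7% higher. Enpp3, a sister ectoenzyme of Enpp2 that hydrolyses nucleotides, gave 160, 200.3 and 201 on contused arrays, against 343, 361 and 383 on uninjured arrays (log2 change -0.96, limma adjusted p = 0.00155). Enpp6, a choline phosphodiesterase that in mice marks newly forming oligodendrocytes, fell 1.56-fold, at 120 ± 9.23 after contusion and 189 ± 30 in uninjured cord (adjusted p = 0.0176). Its adjusted p was 0.0504 on leaving out contused array 1 and 0.0552 on leaving out uninjured array 2. The groups did not overlap for either sister gene.

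Of 3 lipid phosphatase genes whose products break lysophosphatidic acid down, 2 passed as higher, and Plpp3 did not (log2 change 0.62, limma adjusted p = 0.17). Plpp2 gave 840 ± 34.1 after contusion and 580.3 ± 18.6 in uninjured cord (log2 change 0.53, limma adjusted p = 0.0107), although its dimmer probe set had a log2 change of -0.44 and did not pass. Plpp1 rose 1.45-fold (adjusted p = 0.0372) by its brightest probe set, and did so by 2 of its 3 probe sets. With 1 array left out its adjusted p went up to 0.145 (uninjured array 3), and it also exceeded 0.05 without contused arrays 1 and 2 and uninjured array 1. Lpar1, a receptor for lysophosphatidic acid found on oligodendrocytes, was singled out after its values were seen: it gave 474 ± 29 after contusion and 634 ± 108 in uninjured cord (log2 change -0.41, adjusted p = 0.0949).

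Around Ugt8, 3 genes of galactolipid synthesis and breakdown were tested, with 1 lower (Ugt8) and 1 higher. The one that rose was Psap, the precursor of the saposins that help lysosomal enzymes degrade glycolipids, including galactosylceramide. Its brightest probe set gave 4402, 4897 and 4217 on contused arrays, against 3275, 3371 and 3346 on uninjured arrays (log2 change 0.43, limma adjusted p = 0.0124). Its other 2 probe sets had log2 changes of 1.06 and 1.12, and all 3 passed. The brightest had an adjusted p of 0.051 on leaving out uninjured array 2 and of 0.0625 on leaving out uninjured array 3. Psap is expressed by many cells, macrophages included. Macrophage markers rose in these samples, and their part in the Psap change was not tested. Ugcg, which joins glucose rather than galactose to ceramide, had a log2 change of 0.04 (adjusted p = 0.929).

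Around Car2, none of the 6 carbonic anhydrase genes tested passed in limma by the brightest probe set (1 lower, Car2, and 0 higher at a raw p of 0.05), and their median log2 change was -0.18. Car3, the muscle and fat isoform, gave 889 ± 34.4 after contusion and 796 ± 295 in uninjured cord, where array 2 stood low at 459. Car6, the secreted isoform, gave 127 ± 8.62 after contusion and 138 ± 3.41 in uninjured cord.

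Of 8 transcription factor genes of the oligodendrocyte lineage tested, Sox10 included, 2 were higher and 0 lower in limma (2 higher and 1 lower at a raw p of 0.05), with a median log2 change of 0.17. Both that rose encode Id proteins, which bind and block basic helix-loop-helix factors such as the Olig proteins and which many glial and endothelial cells make. Id3 gave 712, 851 and 883 on contused arrays, against 463, 523 and 323 on uninjured arrays (log2 change 0.92, adjusted p = 0.00652), and its second probe set also passed. Id1 rose 1.54-fold (313 ± 60.2 after contusion, against 202 ± 35.3 in uninjured cord, adjusted p = 0.046). The Id1 call was lost without contused array 2 or 3 or uninjured array 1 or 3 (adjusted p up to 0.176, uninjured array 3), and its dimmer probe set did not pass. Myrf, the factor that switches on myelin genes downstream of Sox10, was singled out after its values were seen: it gave 669, 658 and 650.1 on contused arrays, against 763, 902 and 819 on uninjured arrays. The Myrf groups did not overlap, but the log2 change of -0.33 did not pass (adjusted p = 0.0957).

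Around Pdgfra, its ligand gene Pdgfa was the only other gene of the family tested, at 151 ± 14.5 after contusion and 162 ± 15.7 in uninjured cord (log2 change -0.11, limma adjusted p = 0.684). Of 7 progenitor genes tested, Pdgfra and Sox10 included, 1 was lower and 0 higher in limma (1 lower and 0 higher at a raw p of 0.05), with a median log2 change of 0.13. The gene that fell was Cspg5, a brain proteoglycan that neurons make as well, at 366 ± 26 after contusion and 502 ± 46.2 in uninjured cord (adjusted p = 0.0433). Its call was lost with any 1 of the 6 arrays left out (adjusted p 0.0553 to 0.139), with quantile normalization (0.0719), with the arrays scaled to 1 trimmed mean (0.0553) and with the replicate number as a block (0.0573). Its second probe set had a log2 change of 0.15.

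Among 12 other genes of myelin and mature oligodendrocytes tested, 4 were lower and 0 higher in limma (6 lower and 0 higher at a raw p of 0.05), with a median log2 change of -0.27. Summed over the 12 genes, the signal was 17675 to 18456 on contused arrays and 20897 to 22347 on uninjured arrays. Mog, a surface glycoprotein of the outer myelin layer, gave 406, 502 and 506 on contused arrays, against 841, 950.03 and 786 on uninjured arrays (log2 change -0.87, adjusted p = 0.00206). Gjb1, which encodes the gap junction protein connexin 32, fell 1.75-fold, and Mobp, a basic protein of compact myelin, fell 1.49-fold by its brightest probe set and also by its other 3. Qdpr, which regenerates tetrahydrobiopterin, was named after its values were seen and was the fourth, at 1003 ± 197 after contusion and 1616 ± 91 in uninjured cord (adjusted p = 0.00812). Mbp, the myelin basic protein gene, was singled out after its values were seen and had a log2 change of 0 (adjusted p = 0.986). Without the filter on dim probe sets, 6 of the 11 genes of these lists named by rule that had passed did so no longer (Cspg5, Enpp6, Id1, Id3, Plpp1 and Psap), nor did Qdpr (adjusted p = 0.0623). Enpp3, Plpp2, Mog, Mobp and Gjb1 still passed.

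**Figure D4:**
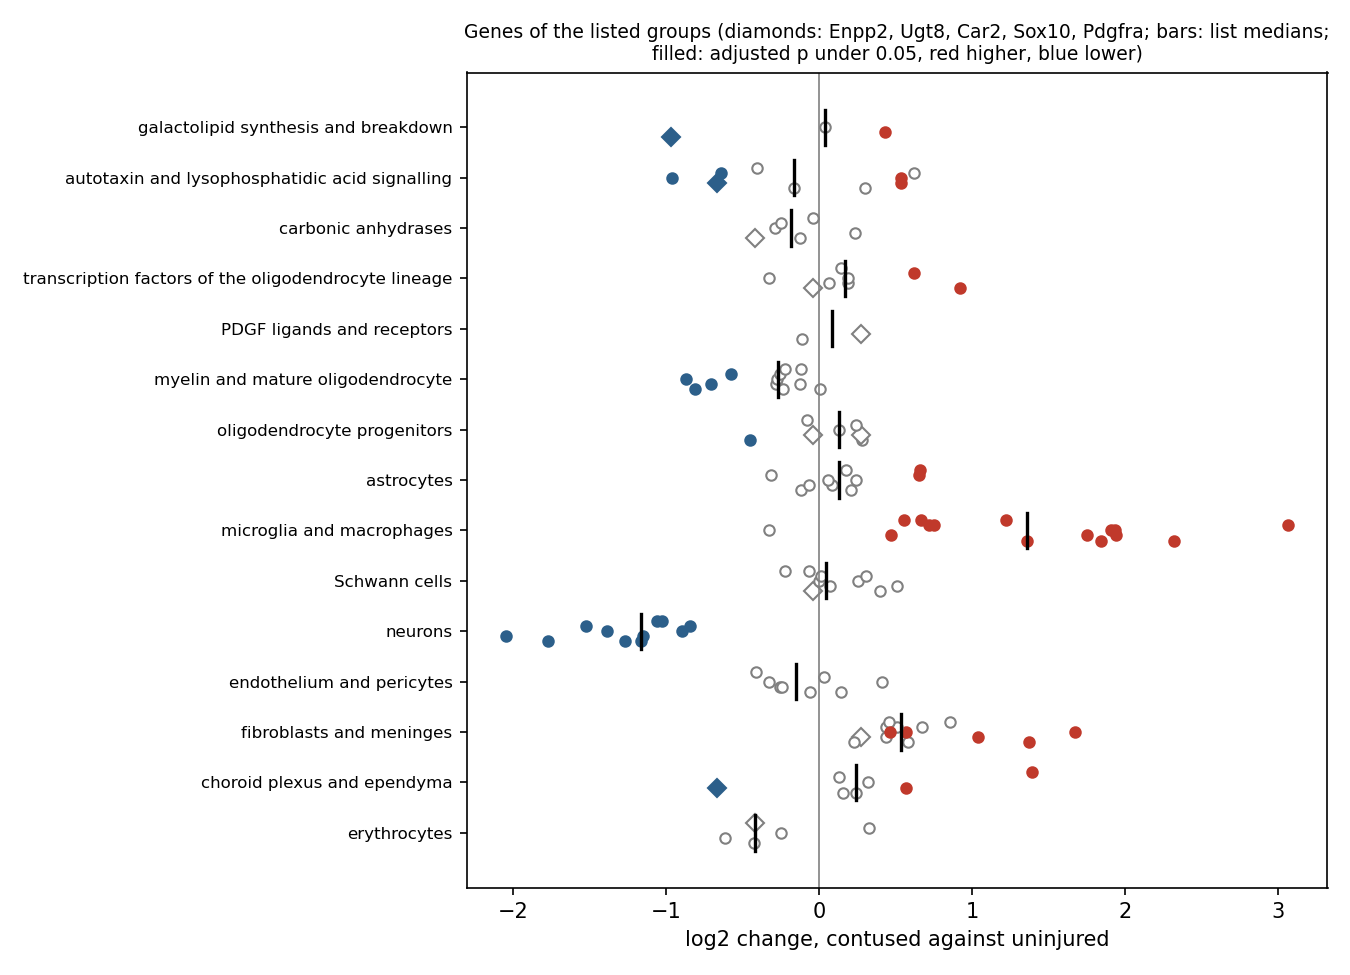
Log2 change (contused against uninjured, horizontal axis) of every tested gene of the 7 pathway lists and 8 cell type lists, 1 point per gene, filled where the limma adjusted p was under 0.05, with list medians as bars. The diamonds of Ugt8 and Enpp2 lie below 0 and are filled, those of Car2 (brightest probe set), Sox10 and Pdgfra are open, and the microglia and neuron lists lie on opposite sides of 0.

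Outside the oligodendrocyte lineage, Enpp2 is known from the choroid plexus. The choroid plexus transport protein gene Ttr stayed under the floor on all 6 arrays, with a highest signal of 29.98. Of 7 choroid plexus and ependyma genes tested, Enpp2 included, 2 were higher and 1, Enpp2 itself, lower. Vim, a filament protein of ependyma, reactive astrocytes and fibroblasts, gave 2464 ± 361 after contusion and 965 ± 312 in uninjured cord, with an adjusted p of 0.00172 in limma and of 0.0564 without the filter on dim probe sets. Igfbp2, also on the meningeal list, rose 1.49-fold by its brightest probe set, with an adjusted p of 0.0804 on leaving out uninjured array 3. Its probe sets A09811cds_s_at and M91595exon_s_at had log2 changes of 0.81 and 0.67 and did not pass (limma adjusted p = 0.0522 and 0.14). In limma 2 of 10 astrocyte genes tested were higher and 0 lower (2 and 0 at a raw p of 0.05). Of these, 0 were higher without the filter on dim probe sets, without contused array 2 or without uninjured array 3. Only 1 was higher without contused array 3, uninjured array 1 or uninjured array 2. The 10 astrocyte genes had summed signals of 13118 to 14046 on contused arrays and 12795 to 13528 on uninjured arrays. By the brightest probe set, endothelial and pericyte genes had 0 of 8 past the threshold in limma (1 lower, Slc2a1, at a raw p of 0.05). Slc2a1 passed as lower by its other probe set (log2 change -0.91, limma adjusted p = 0.0129).

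Genes whose profile over the 6 arrays came closest to each probe set were found by the root-mean-square distance between log2 signals, each centred on its own mean. Nearest to Enpp2 (D28560_at) stood Dock9, an activator of the GTPase Cdc42, at a distance of 0.05, followed by the Hsp90 partner gene Fkbp4 and the potassium channel gene Kcnk1. The median distance of all genes to this probe set was 0.38. For D28560_g_at the closest were Ndufa6, a subunit gene of respiratory complex I, at 0.07, the chaperone gene Hsph1 at 0.11 and the kinase inhibitor gene Camk2n2 at 0.16, against a median of 0.65. None of these genes is on the myelin list, but that list holds only 12 of the 3955 genes tested, so its absence here tells little.

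Nearest to Ugt8 were the small GTPase gene Arl3 at 0.09, the neuronal microtubule gene Map2 at 0.12 and the complex I gene Ndufb8 at 0.12, with a median over all genes of 0.56. Map2, on the neuron list, fell to 430.4 ± 89.1 after contusion, against 889 ± 67.1 in uninjured cord. Nearest to Car2 were Samd1, Kcnj14 and Nr4a3 by X58294_at (0.05 to 0.08) and Galnt16, Trim32 and Dnaja4 by U60578cds_s_at (each 0.07). Sox10 lay closest to Mrpl44, Cops7a and Prkag1, at 0.02 to 0.03, all with log2 changes near 0. Pdgfra lay closest to the cytokine gene Il33 at 0.06, then Acadl and Klf4 at 0.08. These distances rest on 6 arrays, and for a gene that changed they reflect mainly the size of the difference between the groups.

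**Figure D5:**
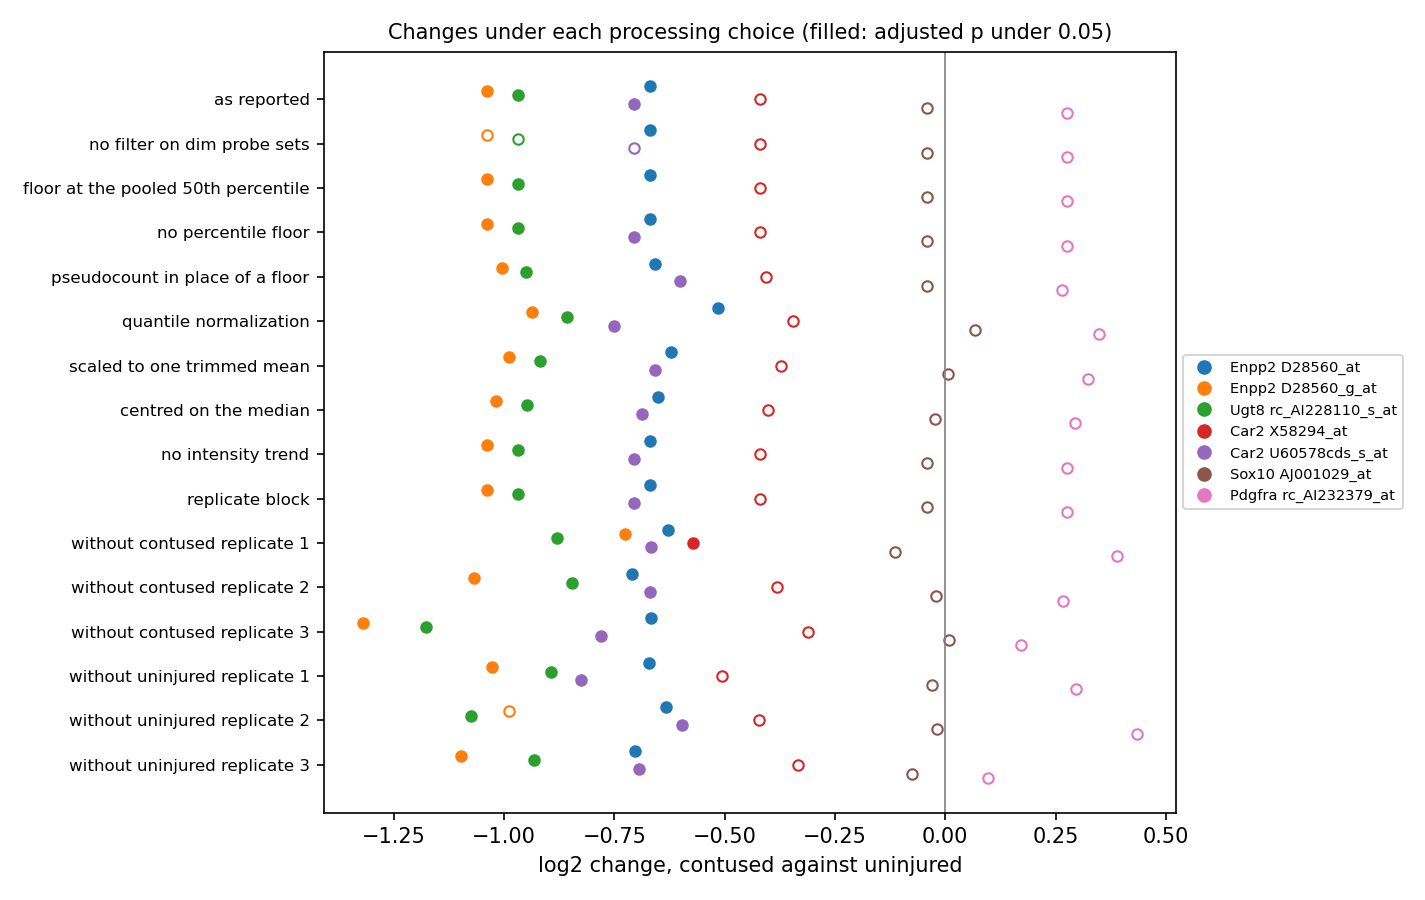
Log2 change (contused against uninjured, horizontal axis) of the 7 tested probe sets, by colour, under the reported settings and 15 other processing choices (rows), filled where the limma adjusted p was under 0.05. Enpp2 D28560_at is filled in every row, the other called probe sets are open without the filter on dim probe sets, and Sox10 stays near 0.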

How the data were processed

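Per the labels, each of 6 arrays measured 1 RNA sample. The deposited values are intensities per probe set on a linear scale, as the values themselves show (each array has 21 to 32 values below 0). Their summarisation, background correction and scaling by the authors are not given in the sources used here. Trimmed means (2% off each end) spread by 8.54% of their mean, within the 10% limit, so no scaling was added. Of 8799 probe sets 59 controls were left out. Gene names come from the array annotation, updated by gene identifier to GRCr8 symbols. The table held 0 columns of other samples.

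Log2 signals, floored at the pooled 25th percentile (61.6, or 5.94 on the log2 scale), were fitted with limma 3.58.1 in R 4.3.3 (lmFit, eBayes with an intensity trend), two-sided, with 4 residual degrees of freedom. The number of arrays limits the precision. A change can be understated where signals under the floor were raised to it. Car2 U60578cds_s_at lay above the floor on all 6 arrays, and its log2 change was -0.71 with and without the percentile floor. The fit was tested on simulated data. Tables and figures used matplotlib 3.10.9 and pandas 2.3.3 in Python 3.11.15. Within-array ratios, added after the values were seen, used an exact permutation test.

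The genes and lists were chosen with earlier results of these data known. Lists hold genes at their brightest tested probe set. Named are all probe sets of the 6 genes, the 3 nearest profiles of each, and per pathway or cell type list up to 3 risen and 3 fallen genes with the smallest p, or the 2 brightest where none passed, of which those bearing on the 6 genes are described. Alternatives changed the filter, floor, scaling, variance trend, replicate block and each array in turn. Same-numbered arrays of the groups were not paired by any label, and their deviations from the group means correlated at 0.04, 0.22 and -0.24.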

Additional observations from a re-analysis of the deposited data

How the results depend on the processing

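The fall of Enpp2 by D28560_at passed under all 15 alternatives, with log2 changes from -0.71 to -0.52 and adjusted p-values from 0.00255 to 0.0165. Without the filter on dim probe sets, 8740 were tested, 662 passed in place of 1165, and 3 calls were lost at the same log2 changes: Enpp2 D28560_g_at (-1.04, adjusted p = 0.143), Ugt8 (-0.97, 0.0686) and Car2 U60578cds_s_at (-0.71, 0.0543); the cause was not tested. With 1 array left out, the count of probe sets past the threshold ran from 659 (uninjured array 3) to 1241, and was 754 without contused array 2. In the same runs the log2 change of D28560_g_at ran from -1.32 to -0.72, of Ugt8 from -1.18 to -0.85, of Car2 U60578cds_s_at from -0.83 to -0.6 and of Car2 X58294_at from -0.57 to -0.31. That of Sox10 ran from -0.11 to 0.00917, the value without contused array 3, and it was 0.0665 with quantile normalization and 0.00608 with the arrays scaled to 1 trimmed mean. Pdgfra stayed above 0 and did not pass under any of the 15, from 0.1 to 0.43. Car2 U60578cds_s_at was not tested with a floor at the 50th percentile. With the replicate number as a block (replicate block), 1200 probe sets passed and no call among the 7 changed. The numbers are not known to pair animals. Only contused array 2 correlated best with the uninjured array of its own number. Contused array 1 correlated best with uninjured array 3, and contused array 3 with uninjured array 1.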
